A study of Homo sapiens with 52 samples.

Results

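Chromosome 18 was followed along its length in single cells of KBM7, an established human chronic myeloid leukaemia line, by the contacts that its DNA made with the nuclear lamina. Its members were all 100 kb bins of chromosome 18 (human genome build hg19) with a value in every cell, 751 of the 26584 measured bins of the series. The file held 781 bins of chromosome 18, and the 30 without a value formed 1 stretch from 15500001 to 18500000, which in hg19 holds the centromere. Contacts were recorded by DamID, in which the bacterial methyltransferase Dam, fused here to Lamin B1, marks adenines in DNA that comes near the lamina. All cells came from clone 14, carried the Lamin B1 fusion, were labelled with ploidy 2N, and received 0.5 nM Shield1 for 15 h to induce methylation. Single cells had been sorted from the smallest 2% of those that carried both Fucci cell cycle reporters. The labels name 52 cells in 1 group, of which 51 had a column and were used. The line is 1 clone, no separate cultures are named, and both copies of chromosome 18 are read together, so the cells were treated as 1 sample and no p-values were computed.

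The nuclear lamina is a mesh of lamin proteins under the inner nuclear membrane. Long stretches of the genome that lie against it are called lamina-associated domains. They are usually poor in genes and in transcription, replicate late, and alternate with gene-rich stretches that stay in the nuclear interior. Textbooks describe chromosome 18 as a small, gene-poor chromosome that lies near the nuclear edge in many human cell types.

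The value of a bin in a cell was its ratio of observed to expected signal (OE), and a bin was taken as in contact at an OE of at least 1. The contact frequency of a bin is the percentage of the 51 cells in contact, and the contact share of a region in a cell is the percentage of its bins in contact. Whole reads recovered from the ratios numbered 50978 to 316463 per cell, of which 1977 to 15721 lay on chromosome 18. Each bin has an expected number, the whole number by which its reads were divided, and its median on chromosome 18 was 329. At an OE of 1 such a bin held 2.21 reads in the shallowest cell and 13.8 in the deepest. A total of 11 bins of chromosome 18 held no read in any cell. SDs describe the spread between these cells.

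Chromosome 18 was contacted more than the other chromosomes in nearly every cell. Its contact share was lowest at 31.2% in cell 27 (95% Wilson interval 27.9% to 34.6%), had a median of 47.1% and was highest at 60.6% in cell 38 (57.0% to 64.0%). The other chromosomes together ranged from 23.5% to 39.4%, with a median of 30.5%. These intervals cover counting error over bins, which are not independent, and are too narrow. Within cells, chromosome 18 exceeded the other chromosomes by 15.8 percentage points ± 5.11 (SD, n = 51), and it was higher in 50 cells. Cell 27 was the exception, with 31.2% on both, and it also had the lowest percentage of its reads on chromosome 18 (2.38%, against a mean of 4.39% ± 0.706). Cell 42, whose other chromosomes had the lowest share of all cells (23.5%), still had contact in 47.1% of chromosome 18. Chromosome 18 ranked first among the 22 measured chromosomes and joined chromosomes at OE thresholds of 0.5, 1 and 2. Chromosomes 8 and Y are not among these 22 and enter no comparison here. Chromosome 18 also ranked first with every cell thinned to the 50978 reads of the shallowest, and in odd-numbered and even-numbered cells taken separately. The lead over the next chromosomes was small. Chromosome X had 43.7% ± 5.99 and chromosome 4 had 43.6% ± 4.94. Within cells, chromosome 18 exceeded X by 3.22 points ± 6.06 and chromosome 4 by 3.30 points ± 5.60. Each difference was smaller than its spread and was positive in 38 of 51 cells.

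**Figure D1:**
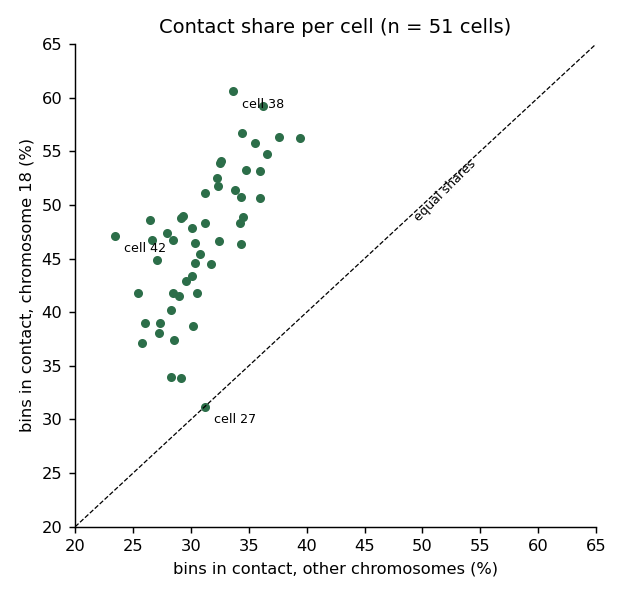
Each point is 1 of the 51 cells. The x axis gives the percentage of bins in contact on the other chromosomes, the y axis that on chromosome 18, and the dashed line marks equal shares. Of the 51 cells, 50 lie above the line, and cell 27 lies on it with 31.2% on both axes.

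Across the 51 cells the contact share of chromosome 18 followed that of the other chromosomes (Pearson's r = 0.678, Spearman's rho = 0.720, and r = 0.703 without the 2 cells farthest from the median). It also followed the number of reads (r = 0.553, rho = 0.468, and r = 0.477 without the 2 farthest) and the percentage of a cell's reads in rarely contacted bins of the genome (r = 0.507, rho = 0.576, and r = 0.639 without the 2 farthest). The excess of chromosome 18 over the other chromosomes had an r of 0.249 with reads (rho = 0.163, and r = 0.199 without the 2 farthest). These values describe cells of 1 sample and share the same libraries. With every cell thinned to 50978 reads, the excess was 14.9 points.

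Chromosome 18 had fewer values of 0 and more values past the threshold. Values of 0 made up 32.2% of all values on chromosome 18 and 50.7% on the other chromosomes. These include bins without a read in any cell. With such bins left out, the excess of chromosome 18 in contact share was 14.0 points. Values of at least 2 made up 31.9% and 19.7%. Among contacted bins alone, the median OE was 2.59 ± 0.351 on chromosome 18 and 2.46 ± 0.214 on the other chromosomes (SD, n = 51). That difference of 0.128 ± 0.293 was smaller than its own spread, and 32 of 51 cells had the higher value on chromosome 18. In rarely contacted bins (at most 5% of cells, expected number at least 100) the mean OE was 0.0683 ± 0.0459 on chromosome 18, over 196 bins, and 0.0460 ± 0.0245 on the other chromosomes, over 10059 bins. It was higher on chromosome 18 in 41 of 51 cells. The same OE values had chosen these bins, and the class differed in make-up. At any expected number, 153 of 209 rarely contacted bins of chromosome 18 had contact in no cell, against 10146 of 12197 on the other chromosomes. The part of this make-up in the difference was not tested. The number of copies of chromosome 18 in each cell was not measured, and its part in the contact share was not tested.

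Contact on chromosome 18 came as blocks with clear interruptions. Of its 751 bins, 271 (36.1%) reached a contact frequency of 80%, against 20.9% of all measured bins. At most 5% of cells contacted 209 bins (27.8%), against 46.7% of all measured bins, and no cell contacted 153 (20.4%), against 38.7%. Bins without a read in any cell are part of these counts. Bins above 20% and under 80% made up 22.6%, close to the 22.1% of all measured bins. With contact set at an OE of 2, a frequency of 80% was reached by 10.7% of chromosome 18, against 4.24% of all measured bins.

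**Figure D2:**
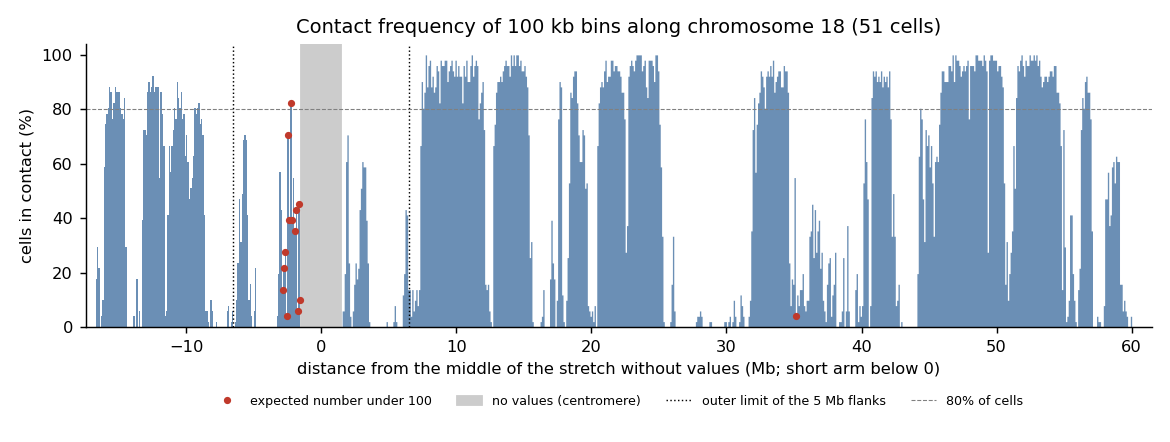
Contact frequency (percentage of the 51 cells in contact) of each 100 kb bin along chromosome 18. The x axis is the distance in Mb from the middle of the stretch without values (grey), with the short arm below 0; dotted lines mark the outer limits of the 5 Mb flanks, and red points mark bins with an expected number under 100. On the long arm, blocks contacted in over 80% of cells alternate with stretches close to 0, and the flanks hold 1 bin above 80%.

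The 271 frequently contacted bins formed 26 uninterrupted runs. The 10 runs of at least 1 Mb held 82.3% of them, and all 10 lay on the long arm. The longest run was chr18:24400001-28600000, which covered 4.2 Mb. Its contact share was 93.2% ± 9.96 (SD, n = 51), with a lowest value of 47.6% in cell 16 and a median of 97.6%. The whole run was in contact in 21 cells, and only 1 cell was under 50%. The short run chr18:28700001-29000000 followed it after 1 bin, with 86.3%. Farther out, chr18:29900001-32300000 reached 94.7% ± 9.13.

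In the middle of the long arm, chr18:37500001-39400000 (92.2% ± 13.8) and chr18:39700001-42000000 (96.1% ± 6.10) were parted by 3 bins. The last of these runs had no cell under 65.2%. The run chr18:49300001-51600000 had a share of 91.0% ± 15.4, and cell 27 stood apart there with 17.4%. Further along, chr18:57700001-59100000 reached 91.2% ± 17.4. It was in full contact in 29 cells and in no contact at all in cell 18, the only case among the 10 longest runs of a cell without any contact.

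Toward the long-arm end lay 4 of the 10 runs close together. The runs chr18:62800001-64900000 (94.5% ± 8.64), chr18:65000001-66300000 (97.3% ± 6.67) and chr18:66400001-67500000 (96.3% ± 6.60) were separated by single bins. The bin between the first pair was contacted in 76.5% of cells. The bin at 66300001 was different, with contact in 14 cells (27.5%) while its neighbours on both sides had 48 and 50 cells. Its OE ranged from 0 to 2.24 with a median of 0.684, and its expected number of 313 was close to the chromosome's median. This bin was chosen after its values were seen. The run chr18:68400001-71700000, the second longest with 3.3 Mb, was the outermost of them with 94.1% ± 10.9, and its lowest share was 39.4% in cell 18. With contact set at an OE of 2, the shares of all 10 runs lay between 70.7% and 79.7%, under the 80% that had defined them.

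All 51 cells contacted 23 bins (3.06% of the chromosome, against 0.824% of all measured bins), and all 23 lay on the long arm. Of these, 4 were adjacent, from 40300001 to 40700000. The highest mean OE belonged to the bin at 31500001, which ranged from 1.74 in cell 52 to 8.61, with a median of 3.72. In the bin at 40400001 no cell fell below 1.85, the highest minimum of the 23, and the median was 3.51. At the other extreme, the bin at 31400001 had an OE of 1.01 in cell 48, so its count of 51 rests on a value at the threshold.

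The rarely contacted bins lay between the blocks in 44 runs, of which 7 reached 1 Mb. The longest was chr18:45100001-47500000, where the contact share was 0.817% ± 4.72 (SD, n = 51) and 48 cells had none. Cell 38 stood apart with 33.3%. With contact set at an OE of 2, the share of this run was 0.0817%, with contact in 1 cell. The neighbouring run chr18:43200001-45000000 had 0.545% ± 2.00, with no contact in 47 cells. On the inner long arm, chr18:20500001-22400000 had 0.310% ± 1.25, and on the short arm chr18:12200001-13800000 had 0.245% ± 1.23, with no contact in 48 and 49 cells. The run chr18:59800001-61100000 had 0.151% ± 1.08 and chr18:9000001-10000000 had 0.196% ± 1.40, each with contact in 1 cell, cell 46 in both cases. In 500 kb bins, whose outer ones reach past the run into contacted bins, the share of chr18:59800001-61100000 was 13.7%, with contact in 27 cells. The median expected numbers of these runs were 279.5 to 344, and they held up to 3 bins without a read each. For a bin with reads and contact in 0 of 51 cells, the limit of 3 counts allows a share of cells of up to 5.88%.

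Borders between the 2 states were steep at several places. Between the 5 bins after and the 5 bins before position 37400001, the mean frequency was 83.1% after and 3.92% before, a step of 79.2 points that had the same direction in all 51 cells. Adjacent bins there had contact in 34 cells after the border and 0 before it. At 74000001 the frequencies were 7.84% after and 86.3% before, and at 42200001 they were 7.06% and 85.5%. The steps at these 2 positions were of the same size, -78.4 points, and had the same direction in 51 cells. At 32400001 the step was -76.5 points (50 cells in its direction), and at 2500001, on the short arm, it was -75.3 points (49 cells). These positions are the 5 steepest of the chromosome, so their size is a description.

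The long arm was contacted more than the short arm. Its share was lowest at 33.7%, had a median of 50.7% and was highest at 62.9%. The short arm had 1.29%, 39.4% and 61.3% for the same values. The ranges overlapped, but the long arm was higher within 48 of 51 cells, by 11.4 points ± 10.2 (SD, n = 51). The difference was 10.1 points without cells 6 and 48, which had the lowest short-arm shares. Bins within 5 Mb of the stretch without values were contacted little on both arms (21.7% short, 15.1% long). They make up 50 of the 155 short-arm bins but 50 of the 596 long-arm bins. Their part in the arm difference was not tested. The long arm exceeded the other chromosomes by 18.2 points ± 4.95 and did so in all 51 cells. The short arm exceeded them by 6.79 points ± 10.7, a difference within its spread, in 40 of 51 cells.

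The arms also differed in kind. A frequency of at least 80% was reached by 40.6% of the 596 long-arm bins and 18.7% of the 155 short-arm bins. The short arm was thus near the 20.9% of all measured bins, and the long arm above it. Bins above 20% and under 80% made up 19.1% of the long arm and 36.1% of the short arm, against 22.1% of all measured bins. The short arm's longest frequent run was chr18:4100001-5000000, which covered 0.9 Mb at 88.2%, in full contact in 30 cells. Contact in all 51 cells was seen in none of the 155 short-arm bins and in 23 (3.86%) of the 596 long-arm bins. Of all measured bins 0.824% had it, so a count of 0 in so few bins says little.

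Single cells showed the short arm almost free of contact. In cell 48 only 2 of 155 short-arm bins were in contact (1.29%, 95% Wilson interval 0.355% to 4.58%), and in cell 6 only 14 were (9.03%, 5.46% to 14.6%). The long arms of these cells were contacted in 42.4% and 52.3%, and their other chromosomes in 28.3% and 30.1%, within the range of all cells. The mean OE of the short arm was 0.107 in cell 48 and 0.301 in cell 6, against a median of 1.12 over cells. Reads were present on it, 73 in cell 48 and 237 in cell 6. Less contact of the short arm and fewer copies of it cannot be told apart in these values. Cells 27 and 31 followed with short-arm shares of 16.1% and 18.1%.

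**Figure D3:**
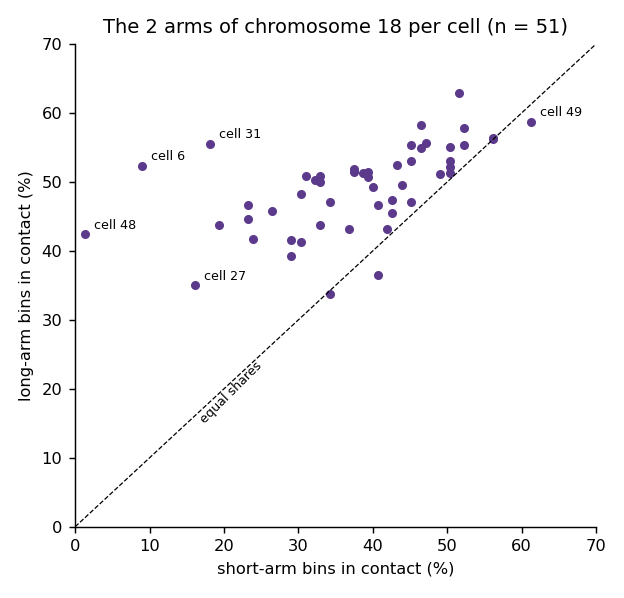
Each point is 1 of the 51 cells. The x axis gives the percentage of short-arm bins in contact, the y axis that of long-arm bins, and the dashed line marks equal shares. Of the 51 cells, 48 lie above the line, and cells 48 and 6 lie far to the left with 1.29% and 9.03% of the short arm in contact.

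Cells with more contact on 1 arm tended to have more on the other. Over the 51 cells, Pearson's r between the arms was 0.574 and Spearman's rho 0.670, while r was 0.642 without the 2 cells farthest from the median short-arm share, cells 6 and 48. After the share of the other chromosomes in the same cell was subtracted from both, r was 0.335 and rho 0.404, and r was 0.409 without the 2 farthest. The same term was subtracted from both arms, and the points share their libraries.

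The flanks of the centromere were contacted little. Bins within 5 Mb of the stretch without values had a contact share of 0% at the lowest (cell 48), 18% at the median and 40% at the highest (cell 49). The other bins of chromosome 18 had 34.3%, 51.8% and 65.7%. The flanks averaged 18.4% ± 9.03 and the other bins 51.2% ± 6.90 (SD, n = 51 each). The difference was -32.9 points ± 7.15, and in all 51 cells the flanks were lower. The flanks also lay below the other chromosomes by 12.7 points on average (SD 7.86), in 48 of 51 cells. Of the 100 flank bins, 1 (1%) was contacted in at least 80% of cells, while 47 (47%) were contacted in at most 5%, near the 46.7% of all measured bins.

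Both sides took part. The long-arm flank, chr18:18500001-23500000, averaged 15.1% ± 9.86 and the short-arm flank, chr18:10500001-15500000, 21.7% ± 11.7. Each was below the other bins of the chromosome in all 51 cells, by 36.1 and 29.6 points. The flanks were uneven inside. On the long-arm side, the share was 21.2% within the first Mb and 39.8% ± 31.0 in the next, and it was 0.196% and 1.18% from 2 to 4 Mb. From 5 to 6 Mb it was 23.9%, and from 6 to 7 Mb it was 90.4% ± 16.4, where the longest block begins. On the short-arm side, no cell had any contact from 2 to 3 Mb, while 37.1% ± 25.0 were contacted from 4 to 5 Mb. Low contact went on past the flank on this side, with 2.16% from 5 to 6 Mb and 2.55% from 6 to 7 Mb, and the share was 65.3% ± 28.4 from 7 to 8 Mb.

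The first Mb on the short-arm side reads differently, with 42.5% ± 21.1, but its median expected number was only 16. Such a bin passes the threshold on few reads. The 1 bin of this Mb with an expected number of at least 100 was contacted in 54.9% of cells. The part of low expected numbers in the share of this Mb was not tested. Of the 50 bins of the short-arm flank, 13 had an expected number under 100 and 2 held no read, and with the other 35 bins the flank averaged 18.5% ± 11.4. The single flank bin contacted in over 80% of cells, at 14700001, had an expected number of 97. With such bins left out of the whole chromosome the flank difference was -35.5 points. With other widths the difference changed more. It was -17.1 points with flanks of 2 Mb and -10.6 points with flanks of 10 Mb, which take in part of the longest block.

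**Figure D4:**
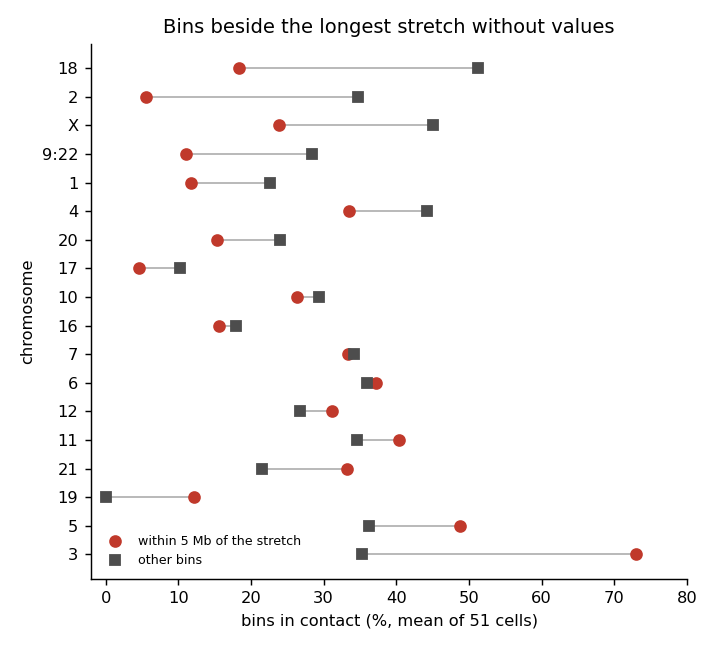
For each of 18 chromosomes and joined chromosomes, the percentage of bins in contact (mean of 51 cells) within 5 Mb of the longest inner stretch without values (red circles) and in its other bins (grey squares), ordered by the difference. Chromosome 18 is at the top with 18.4% against 51.2%, and chromosome 3 at the bottom with 73% against 35.3%.

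Low flanks were not general. The same comparison could be made on 18 chromosomes and joined chromosomes, and the mean flank share was lower on 11 of them and higher on 7. These counts are not firm. On chromosome 7 the difference was -0.793 points ± 7.77, and the flank was higher in 27 of 51 cells. With only flank bins of an expected number of at least 100, chromosome 7 had 38.7% in the flanks against 34.2% in all other bins. The joined chromosome 9:22 then had 28.4% against 28.4%, and chromosome 6 had 35.4% against 36.0%. The difference of chromosome 18 was the most negative at a flank of 5 Mb. Chromosome 2 came next with -29.2 points ± 4.86 (5.54% against 34.7%), lower in all 51 cells, and then chromosome X with -21.3 points ± 8.89. The spreads of chromosomes 18 and 2 overlap, so their order is not firm. On chromosome 3 the difference was 37.7 points ± 9.42, higher in all 51 cells.

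The 2 ends of chromosome 18 were unlike each other. The outermost 5 Mb of the long arm had a contact share of 27.5% ± 11.7, below the 48.2% ± 6.59 of the bins away from both ends by 20.7 points ± 9.58, in all 51 cells. The outermost 5 Mb of the short arm had 49.6% ± 13.6, within the spread of the inner bins and above them in 37 of 51 cells. Both ends together differed from the inner bins by -9.74 points ± 7.13. Ends 2 Mb wide gave -21.5 points. Ends 10 Mb wide gave 2.28 points ± 7.59, the other direction but within its spread, and 17 of 51 cells were still lower at the ends. At that width the long-arm end had 49.5% and the short-arm end 47.6%.

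The last Mb of the long arm had no contact in any of the 51 cells. Of its 11 bins, 3 held no read, and the median expected number was 289. The next Mb inward had 12.2% ± 14.0, and the third had 52.5% ± 32.5. On the short arm the outermost Mb had 14.1% ± 14.0, with no contact in 17 cells. The Mb after it already had 82.7% ± 25.5, and every cell had some contact there.

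Some stretches differed between cells far more than others. Among 38 windows of 2 Mb, the largest spread was in chr18:6000001-8000000 on the short arm, with a mean of 72.8% ± 28.2 (SD, n = 51). Its share was 0% in cell 48, 80% at the median and 100% at the highest, and at least 90% of its bins were in contact in 23 cells. The next largest was its neighbour chr18:4000001-6000000, with 69.6% ± 21.7. Without cells 6 and 48 these SDs were 25.3 and 18.0 points. On the long arm the most variable window away from the centromere was chr18:52000001-54000000, with 23.2% ± 20.6. It had no contact in 10 cells and at most 60% in any. The steadiest frequent window was chr18:40000001-42000000, with 96.2% ± 5.71 and at least 90% of bins in contact in 49 cells.

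**Figure D5:**
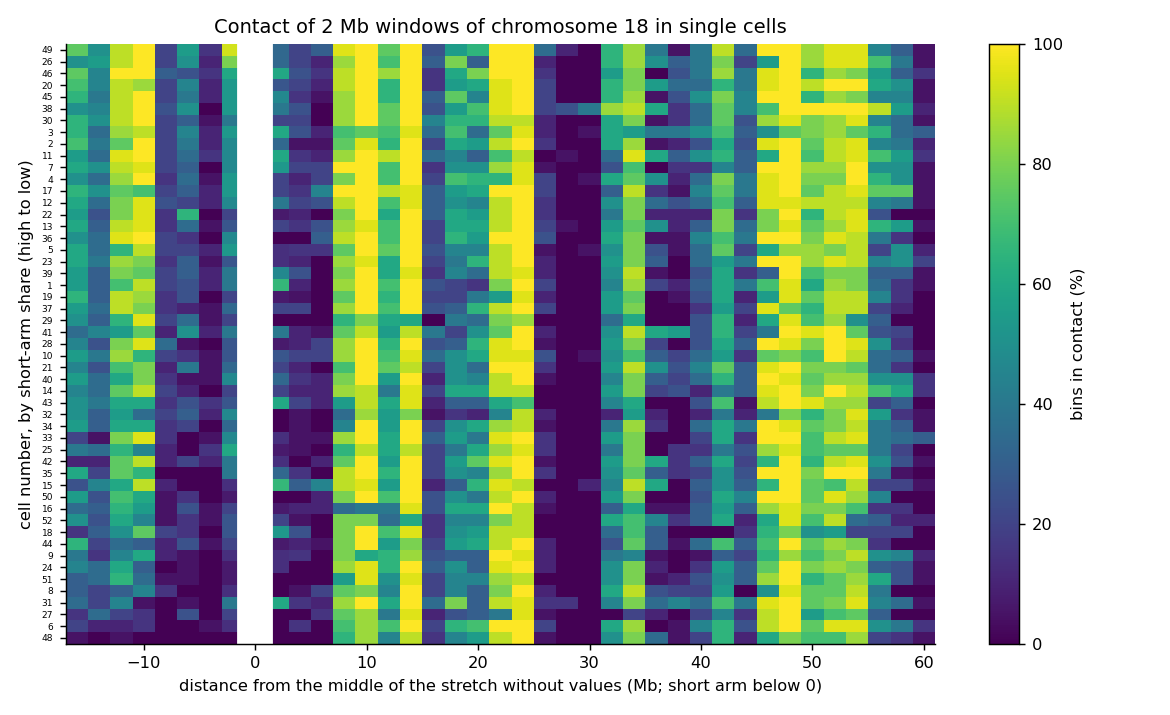
Percentage of bins in contact (colour) in windows of 2 Mb along chromosome 18, with 1 row per cell, ordered from the highest short-arm share at the top to the lowest at the bottom. The x axis is the distance in Mb from the middle of the stretch without values (white), with the short arm below 0. The bright columns of the long arm run through nearly all cells, whereas the short-arm columns fade toward cells 6 and 48 at the bottom.

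Single cells departed from the common layout in separate places. Cell 27, with the lowest share on the chromosome, had contact in 20% of chr18:50000001-52000000 (mean of cells 77.1%) and 40% of chr18:38000001-40000000 (86.8%). In chr18:64000001-66000000 it had 100%. Cell 18 had none in chr18:58000001-60000000 (61.7%) and 20% in chr18:70000001-72000000 (85.6%). Cell 38, with the highest share, had 40% in chr18:46000001-48000000, where the mean of cells was 1.37% and 45 cells had no contact. This cell had 287566 reads, of which 3.85% lay in rarely contacted bins of the genome, against a mean of 2.01%. The part of depth and background in its contacts there was not tested.

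Contacts ran for longer without interruption than elsewhere. The mean length of an uninterrupted run in a cell was 0.710 Mb ± 0.197 on chromosome 18 and 0.530 Mb ± 0.0763 on the other chromosomes (SD, n = 51 each). The difference of 0.179 Mb ± 0.147 was positive in 46 cells. The contact share was higher on chromosome 18 too, and its part in the length was not tested. With every cell at 50978 reads the difference was 0.0941 Mb, and with contact set at an OE of 2 it was 0.0586 Mb. Of all contacted bins, 69.6% lay in runs of at least 1 Mb on chromosome 18 and 56.4% on the other chromosomes. Each cell's longest run on chromosome 18 covered from 1.7 Mb to 10.1 Mb, with a median of 4.5 Mb. The longest of all, in cell 38, was chr18:62700001-72800000, which joined the 4 frequent runs of the outer long arm.

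Bins of intermediate frequency varied together over cells, most of all between neighbours. Contact was compared over the 170 bins of chromosome 18 with a frequency from 20% to 80%, with each cell's contact share subtracted first, and the mean between chromosomes was taken off each correlation. Neighbouring bins had a mean correlation of 0.415. Pairs 1 Mb apart had 0.227, pairs 5 Mb apart 0.0953 and pairs 10 Mb apart 0.0717. The value was 0.0606 over 20 Mb and 0.0507 over 40 Mb. Pairs within the short arm had a mean of 0.175, pairs within the long arm 0.0744, and pairs of 1 bin from each arm 0.0562. The short arm is shorter, so its pairs lie closer together. Without cells 6 and 48, whose short arms were almost free of contact, pairs 1 Mb apart had 0.196 and pairs 10 Mb apart 0.0545. Pairs of 1 bin from each arm then had 0.0569, and the means within each arm were not computed without these cells. At 10 Mb the value was 0.0393 after thinning to 50978 reads and 0.0416 at an OE of at least 0.5. Between the arms it was 0.0951 in even-numbered and 0.0380 in odd-numbered cells. These correlations share cells and libraries and are a description.

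Chromosomes 17 and 20, of similar length, held far fewer frequently contacted bins. A frequency of at least 80% was reached by 12.8% of chromosome 20 and 3.47% of chromosome 17, and by 32% of the much longer chromosome 4, which was the nearest numbered chromosome in contact share. The mean phi correlation between pairs of cells, a measure of how alike their contact maps are, was 0.650 on chromosome 18, the fifth highest of the 22. It was 0.600 on chromosome 20, 0.562 on chromosome 17 and 0.630 on chromosome 4. At 1 Mb the correlation of intermediate bins was 0.227 on chromosome 18, 0.294 on chromosome 20, 0.357 on chromosome 17 and 0.195 on chromosome 4.

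The classes were also read in cells that had no part in choosing their bins. Odd-numbered and even-numbered cells belong to the same clone and the same 1 sample, so they are not replicates. The rules for the classes were set with earlier results of all cells known. Bins contacted in at least 80% of the 25 odd-numbered cells numbered 279, and in the 26 even-numbered cells these were contacted in 91.8% ± 8.30 (SD over even-numbered cells), against 46.9% for the whole chromosome. Of the 279, 258 reached at least 80% in the even-numbered cells too. The 225 bins contacted in at most 5% of odd-numbered cells were contacted in 1.76% ± 2.23 in even-numbered cells, and 200 stayed at or under 5%. Runs of at least 1 Mb chosen in odd-numbered cells numbered 10 frequent and 8 rare ones. In even-numbered cells the frequent ones had shares of 91.2% to 97.6% and the rare ones 0% to 4.9%. These values were not set beside those of the other chromosomes, so they show nothing particular to chromosome 18.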

How the data were processed

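The authors deposited 1 ratio per cell and 100 kb bin, the observed over the expected signal (OE), per the file headers and labels. Cutadapt and Bowtie2 2.1.0 were used with hg19, per the submitters' processing notes. The source of the expected value is not given in the sources used here, nor is the treatment of duplicates. Bins without a value in any cell and cell 47 were not analysed here. Whole reads were recovered from the ratios, with 100% of values above 0 whole within 0.02 reads; the recovery and the layout statistics were tested on simulated data. Depth here means these reads, and intervals cover counting error only.

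Contact was an OE of at least 1. Flanks and ends were 5 Mb wide. The longest inner stretch without values was the landmark, and stretches split by 1 bin were joined. Chromosome 15 was left out of the flank comparison because its longest stretch lies away from its centromere. Regions named here are the 10 longest runs at a frequency of at least 80% and at most 5%, bins contacted in all cells, the flanks, ends and 5 steepest steps. The named cells were those with extreme shares. The members and these rules were chosen with earlier results of these data known. No genes were placed in bins, as no hg19 annotation was used. Alternatives were other OE thresholds, the top 30% of bins per cell, bins with a read or an expected number of at least 100, thinning, 500 kb bins, the odd-numbered cells, the even-numbered cells, other widths, numbered chromosomes, and log2(OE + 0.1). The analysis used Python 3.11.15, NumPy 2.4.6, pandas 2.3.3 and SciPy 1.17.1.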

Additional observations from a re-analysis of the deposited data

How the results depend on the processing

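Leaving out the 5 cells of highest background, the 5 shallowest cells, or cells 6 and 48 was chosen after the data were seen. Over 18 alternatives, 405 of 444 values stayed within the spread over cells, or, for counts and correlations, within 1.5 times. The excess of chromosome 18 over the other chromosomes was 12.3 to 17.1 points, and the arm difference 9.87 to 12.8 points. With contact set at an OE of 2, the percentage of bins at a frequency of 80% was 10.7% and the 10 frequent runs had 70.7% to 79.7%. The higher threshold itself lowers both. At that threshold the flank difference was -25.5 points and the correlation between arms 0.0356. The flank difference was -17.1 points with 2 Mb and -10.6 points with 10 Mb. The end difference was -21.5 points with 2 Mb and turned to 2.28 points ± 7.59 with 10 Mb. With 10 Mb the long-arm end had 49.5% and the short-arm end 47.6%. The correlation at 10 Mb was 0.0416 at an OE of at least 0.5 and 0.0393 after thinning. The correlation between arms was 0.0344 after thinning and 0.0951 in even-numbered cells; the cause was not tested. Calls of single bins were least precise in cell 9, where an OE of 1 stood for 2.21 reads. No paired analysis was possible because there is 1 group.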
